A study of Mus musculus with 15 samples.

Results

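The genes described here are 39 genes of the Wnt pathway in the intestinal crypt, taken by symbol from a list out of the 45905 genes in each of the deposited tables of reads per gene. They comprise 5 stem cell markers, 8 targets, 4 feedback inhibitors, 6 receptors, 6 ligands, 3 secreted antagonists, 4 TCF/LEF factors and 3 proteins of the destruction complex. All 39 were found in both tables. Poly(A) RNA of mouse gut and of organoids grown from it was sequenced in 15 libraries, 3 in each of 5 groups. The series is about plakoglobin, the junction protein encoded by Jup.

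The Tamoxifen organoids carried, by their titles, a floxed Jup gene (JUPfl/fl) and iVilCre ERT2, a Cre recombinase driven by the villin promoter of intestinal epithelium and activated by tamoxifen. The DMSO organoids and the nativ organoids carried JUPfl/fl with no Cre in their titles. DMSO is a solvent, and nativ is used only as a group name. All 3 Tamoxifen libraries share a code in their descriptions, and the 6 DMSO and nativ libraries share another. The descriptions do not say what the code stands for. Code, Cre and treatment changed together, and their effects cannot be told apart. Nothing says that the libraries of an organoid group came from separate cultures, so p-values measure only the spread between these libraries. The gut libraries came from separate codes and are named by their descriptions, PG_KO and ctr. Their titles disagree with these: the PG_KO libraries are titled DSS colitis JUPfl/fl, and the ctr libraries iVilCre ERT2JUPfl/fl. DSS is dextran sulfate sodium, which injures the colonic epithelium, and which animals received it is not settled by the labels. The labels give no age.

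Jup stood at 69.0 to 71.2 CPM (reads scaled to a common library total) in Tamoxifen organoids, against 359.6 to 414 CPM in DMSO and 275 to 395 CPM in nativ organoids. In gut it stood at 75.2 to 82.8 CPM in PG_KO, against 302 to 495 CPM in ctr, so that low Jup followed the descriptions and not the titles. Totals ran from 25185053 to 30744563 reads per organoid library and from 23194385 to 29257641 reads per gut library. At these totals 3 reads equal 0.0976 to 0.129 CPM, and floors and intervals given below cover counting error only. The summed level of 8 epithelial markers was 11030.3 to 11177 CPM in Tamoxifen, 6611 to 8028 CPM in DMSO and 8425 to 8569 CPM in nativ organoids. These sums hide markers that went opposite ways. Krt18 averaged 880 CPM in Tamoxifen, 2586 CPM in DMSO and 3153 CPM in nativ organoids. Krt20 averaged 437, 1.38 and 2.04 CPM, and Vil1 1255, 223 and 207 CPM. In the same order, 11 fibroblast markers summed to 1.44 to 1.85, 2.69 to 4.87 and 1.91 to 3.58 CPM, so fibroblast markers were near 0 in the organoids. Gut held 664 to 1482 CPM of these markers in PG_KO and 970 to 3952 CPM in ctr.

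Wnt proteins are lipid-modified ligands that bind Frizzled receptors together with the co-receptors LRP5 and LRP6. Binding stops a complex of AXIN, APC and GSK3 from marking beta-catenin for destruction, and beta-catenin then acts with TCF/LEF factors on target genes. In the intestine this pathway maintains the stem cells at the crypt base, and plakoglobin, a close relative of beta-catenin, can bind some of the same partners. 

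In Tamoxifen organoids the genes of the pathway did not move as a block. Stem cell markers other than Lgr5 rose against both groups. Of 8 targets, 6 were lower against DMSO and 4 against nativ, and of 4 feedback inhibitors, 3 and 1. Wnt3 led the ligands, where Wnt7b led in DMSO and nativ organoids. With the quasi-likelihood test of edgeR at an adjusted p under 0.05, 16 genes were higher and 15 lower than in DMSO among the 35 with enough reads to be tested. Of all 16449 tested genes, 66.3% were called in this comparison, 33.9% higher and 32.4% lower. Against nativ, 16 were higher and 10 lower of 35, where 66.9% of all tested genes were called, 33.5% in each direction. Calls were thus the common case in both comparisons, and the count of members called says little by itself. The median log2 change of the tested members was -0.20 against DMSO and -0.00 against nativ, beside 0.02 and 0.01 over all tested genes. The 2 comparisons share the Tamoxifen libraries and are therefore given side by side. Dkk3, Lgr6, Wnt5a and Wnt9b were not tested in organoids. In a fit with no filter on low counts, 32 of 39 were called against DMSO, where 42.6% of 27105 genes were.

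**Figure D1:**
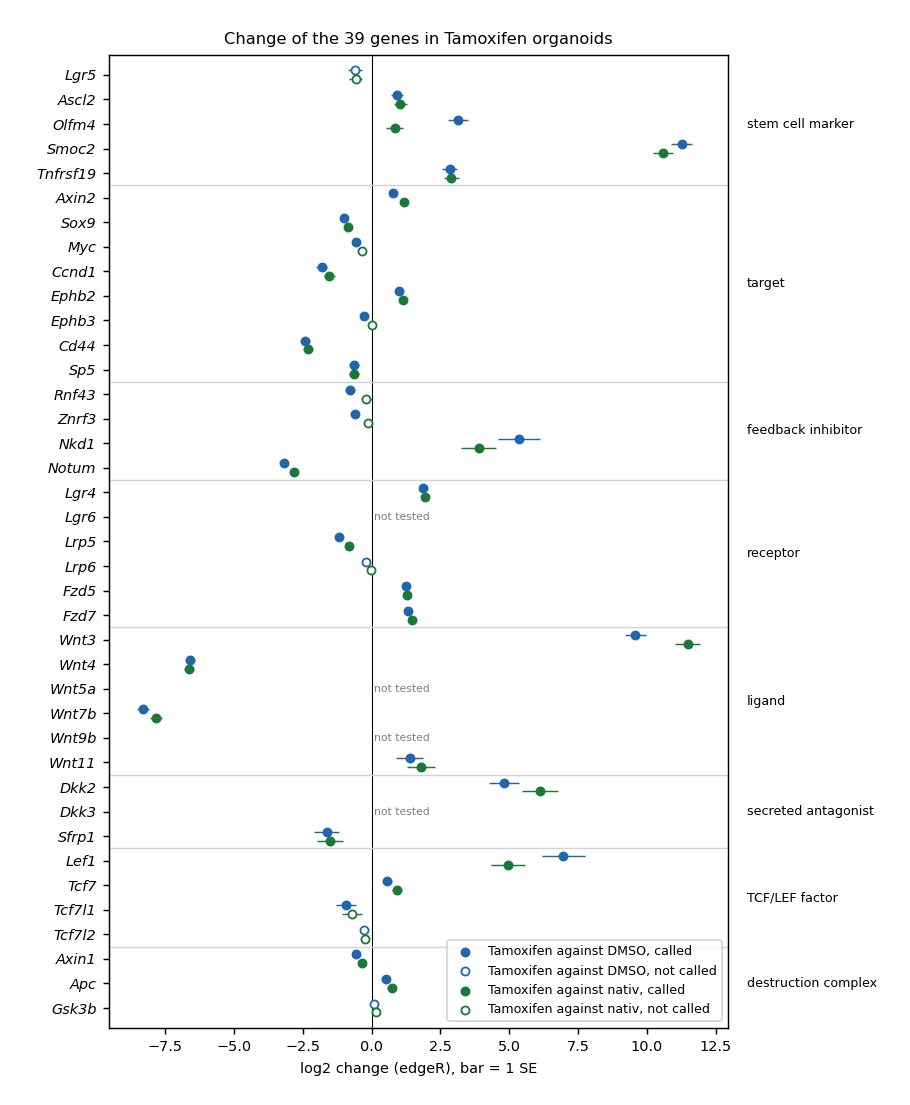
Fitted log2 change of each gene in Tamoxifen organoids against DMSO (blue) and against nativ (green), with a bar of 1 SE, where filled points passed an adjusted p of 0.05 in edgeR and open points did not. Points lie on both sides of 0 within most roles, and the points of Smoc2, Wnt3, Lef1, Nkd1 and Dkk2 depend on a handful of reads in DMSO or nativ libraries. Bars at such points can be shorter than counting error.

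The stem cell markers were Lgr5, a receptor for R-spondin, Ascl2, a transcription factor of crypt base stem cells, and Olfm4, Smoc2 and Tnfrsf19 (also called Troy). Of these 5, 4 rose in Tamoxifen organoids against both other groups, and Lgr5 passed the test in neither. Lgr5 had 42.3, 42.8 and 41.4 CPM in Tamoxifen, 35.4, 61.3 and 86.0 CPM in DMSO, and 54.0, 52.6 and 68.5 CPM in nativ organoids. The Tamoxifen libraries lay below all nativ libraries and inside the wide range of the DMSO libraries. The log2 change of Lgr5 was -0.60 ± 0.25 against DMSO (SE, edgeR adjusted p = 0.0523) and -0.59 ± 0.25 against nativ (adjusted p = 0.0568). It passed the threshold without DMSO replicate 1 (-0.89, edgeR adjusted p = 3.54e-04) and against nativ when only those 6 libraries were fitted (adjusted p = 0.00121). DESeq2 called Lgr5 lower in both comparisons (adjusted p = 0.0374 and 0.0475), as did edgeR with the replicate number as a block (adjusted p = 0.0418 and 0.0303).

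Smoc2, a secreted matrix protein, had 105, 94.5 and 106 CPM in Tamoxifen organoids. It had 0, 0.119 and 0 CPM in DMSO and 0.0655, 0.104 and 0 CPM in nativ organoids, that is 3 and 5 reads per group. The Tamoxifen level was 2894-fold that in DMSO, with a 95% counting interval of 990.0 to 14036. Against nativ the fitted log2 change was 10.59 (edgeR adjusted p = 1.73e-09), and 11.32 without nativ replicate 2. No SE is given for it, because an SE taken from F does not measure the counting error of 5 reads.

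Tnfrsf19, a member of the TNF receptor family, had 22.6, 21.0 and 22 CPM in Tamoxifen, 3.92, 2.74 and 2.13 CPM in DMSO and 1.93, 3.71 and 2.40 CPM in nativ organoids. Its groups did not overlap, and the log2 change was 2.83 ± 0.28 against DMSO (edgeR adjusted p = 5.81e-06) and 2.89 ± 0.28 against nativ (adjusted p = 5.25e-06). Ascl2 had 8.85 to 10.5 CPM in Tamoxifen, 3.38 to 5.83 CPM in DMSO and 3.73 to 4.91 CPM in nativ organoids, a log2 change of 0.92 ± 0.22 and 1.05 ± 0.22 (edgeR adjusted p = 0.00368 and 0.00162). Olfm4, a secreted glycoprotein of crypt base cells, had 9.996, 10.1 and 10.1 CPM in Tamoxifen, 0.575, 1.07 and 1.64 CPM in DMSO and 7.17, 5.30 and 3.06 CPM in nativ organoids. It was thus nearly constant among Tamoxifen libraries and lowest in all 3 DMSO libraries. Its log2 change was 3.13 ± 0.36 against DMSO (edgeR adjusted p = 2.38e-05) and 0.84 ± 0.31 against nativ (adjusted p = 0.0343), and the call against nativ was lost without nativ replicate 3 (0.55, adjusted p = 0.102) or without any 1 of the Tamoxifen libraries (adjusted p = 0.0750 to 0.0809).

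**Figure D2:**
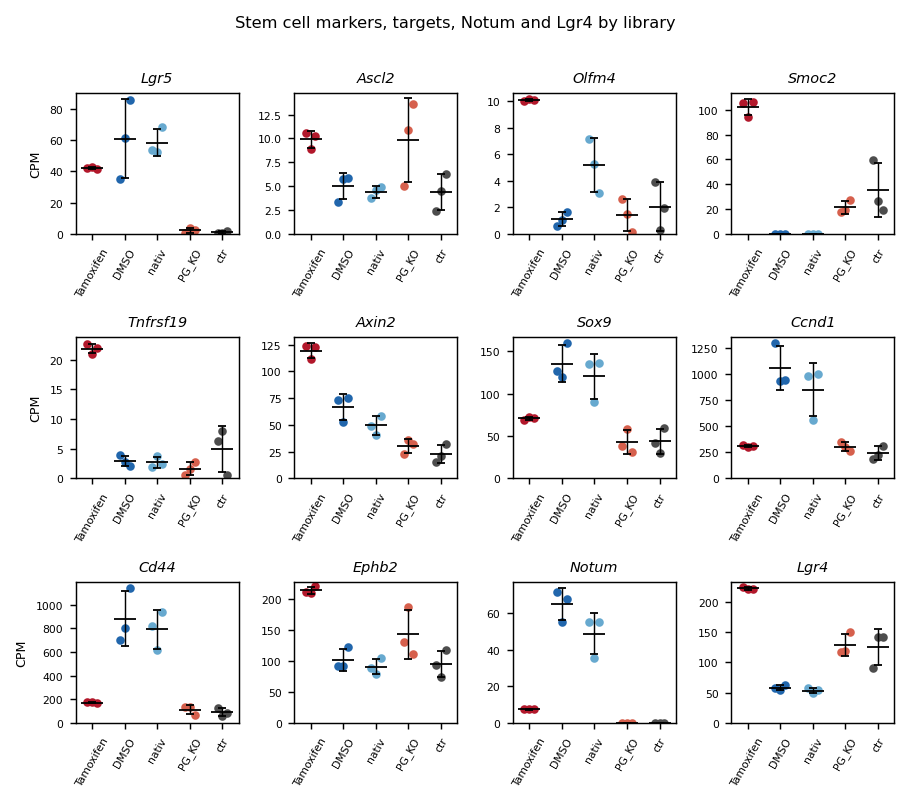
CPM (linear axis from 0) of the 5 stem cell markers, 5 targets, Notum and Lgr4 in each library of the 5 groups, with a point per library and lines for the mean ± SD (n = 3). Smoc2 lies at 94.5 to 106 CPM in Tamoxifen and at or under 0.119 CPM in DMSO and nativ organoids, whereas Lgr5 lies between 35.4 and 86.0 CPM in all 9 organoid libraries and at or under 3.88 CPM in gut.

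The 8 targets split. Axin2 and Ephb2 rose against both groups, Ccnd1, Cd44, Sox9 and Sp5 fell against both, and Myc and Ephb3 passed the test against DMSO only. Axin2, a scaffold of the destruction complex and the most widely used read-out of the pathway, had 124, 111 and 123 CPM in Tamoxifen, 73.1, 52.5 and 74.7 CPM in DMSO and 49.2, 40.9 and 58.5 CPM in nativ organoids. All Tamoxifen libraries exceeded all others, with a log2 change of 0.77 ± 0.13 against DMSO (edgeR adjusted p = 3.12e-04) and 1.16 ± 0.13 against nativ (adjusted p = 1.71e-05). Ephb2, a receptor that positions cells along the crypt, had 210 to 220 CPM in Tamoxifen, 90.9 to 122 CPM in DMSO and 79.5 to 104 CPM in nativ organoids. Its log2 change was 1.01 ± 0.12 and 1.12 ± 0.12 (edgeR adjusted p = 2.76e-05 and 1.25e-05).

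Ccnd1, the cell cycle protein cyclin D1, had 323, 305 and 313 CPM in Tamoxifen, 1300.5, 933 and 947 CPM in DMSO and 987, 556 and 1006 CPM in nativ organoids. The groups did not overlap, and the log2 change was -1.82 ± 0.19 against DMSO (edgeR adjusted p = 9.95e-06) and -1.54 ± 0.19 against nativ (adjusted p = 3.56e-05). Cd44, an adhesion molecule of crypt cells, had 175, 173 and 167 CPM in Tamoxifen, 699, 807 and 1140.4 CPM in DMSO and 819, 616 and 942 CPM in nativ organoids. All Tamoxifen libraries lay below all others, with a log2 change of -2.43 ± 0.18 and -2.31 ± 0.18 (edgeR adjusted p = 7.78e-07 and 1.16e-06). Sox9, a transcription factor of crypt and Paneth cells, averaged 70.8 CPM in Tamoxifen, 135.5 CPM in DMSO and 120.6 CPM in nativ organoids, a log2 change of -1.001 ± 0.13 and -0.87 ± 0.13 (edgeR adjusted p = 5.51e-05 and 1.52e-04). 

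Beside these, the summed level of 7 markers of dividing cells was 772 to 825 CPM in Tamoxifen, 205 to 300 CPM in DMSO and 285 to 310 CPM in nativ organoids, and all 7 were called higher in both comparisons. The marker sum and Ccnd1 therefore ran in opposite directions. Whether the share of dividing cells had a part in the values of the targets was not tested. In bulk RNA, fewer cells of a type and less RNA per cell cannot be told apart.

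Sp5, a transcriptional repressor, had 8.06, 7.09 and 8.98 CPM in Tamoxifen, 9.98, 11.2 and 14.7 CPM in DMSO and 10.5, 11.2 and 12.9 CPM in nativ organoids. It lay lower in every Tamoxifen library, by -0.64 ± 0.17 on the log2 scale against each group (edgeR adjusted p = 0.00589 and 0.00570). Myc, a growth-promoting transcription factor, had 117 to 124 CPM in Tamoxifen, 153 to 189 CPM in DMSO and 97.3 to 174 CPM in nativ organoids. Only the call against DMSO passed (log2 change -0.57 ± 0.15, edgeR adjusted p = 0.00683, against -0.35 ± 0.15 and adjusted p = 0.0620 for nativ), and without nativ replicate 2 the second was -0.54 (adjusted p = 6.03e-04). Ephb3, a relative of Ephb2, was -0.27 ± 0.09 against DMSO (edgeR adjusted p = 0.0261), with overlapping groups, and the call was lost without DMSO replicate 3 or without Tamoxifen replicate 2 or 3 (adjusted p = 0.0601 to 0.103), with library totals (0.181) or with no filter on low counts (0.0520). Against nativ its log2 change was -0.00 ± 0.09.

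Sp5 and Axin2 moved in opposite directions, and the 250 bases before the start that the RefSeq promoter table gives for each are shown because both are textbook targets. Promoters from RefSeq (build GRCm38.p6) were searched on both strands for the TCF/LEF motifs CTTTGAT and CTTTGAA. These differ only in the last base, and matches on opposite strands may overlap. Of the 39 genes, 24 had a promoter in the table and 3 of these held a motif (Sp5, Tnfrsf19 and Wnt11). These 3 did not share a direction: Sp5 was called lower against both groups, and Tnfrsf19 and Wnt11 were called higher against both. Among all 32851 promoters 7.48% held either motif, and by gene 8.63% of 27025 did. The Sp5 window lies on the plus strand at chr2:70474673-70474922, immediately before the gene, and capitals mark CTTTGAT, which begins 104 bases before the start. The Axin2 window, on the plus strand at chr11:108920099-108920348, holds neither motif, so it has no capitals. It overlaps no gene in GENCODE M21, but lies inside the longer Axin2 span of the deposited tables (chr11:108917828-108950783), which begins before it. Absence from this window leaves the rest of the gene unsearched.
Sp5: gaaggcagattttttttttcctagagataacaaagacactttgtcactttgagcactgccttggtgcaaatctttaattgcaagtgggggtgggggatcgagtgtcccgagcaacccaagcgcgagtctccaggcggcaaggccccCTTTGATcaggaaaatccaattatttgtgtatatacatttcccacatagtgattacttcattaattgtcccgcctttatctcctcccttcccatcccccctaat
Axin2: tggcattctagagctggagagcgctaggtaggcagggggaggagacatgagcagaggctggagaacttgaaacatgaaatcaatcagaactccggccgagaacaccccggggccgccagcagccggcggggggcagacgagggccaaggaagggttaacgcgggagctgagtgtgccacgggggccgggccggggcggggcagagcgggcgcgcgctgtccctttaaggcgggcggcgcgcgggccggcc

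The feedback inhibitors are themselves switched on by Wnt signalling and dampen it. Notum, a secreted enzyme that removes the lipid from Wnt proteins, had 7.35, 7.38 and 7.76 CPM in Tamoxifen, 71.7, 55.4 and 68.1 CPM in DMSO and 55.4, 35.8 and 55.0 CPM in nativ organoids. No library of the other groups came near the Tamoxifen level, and its log2 change was -3.18 ± 0.14 against DMSO and -2.80 ± 0.14 against nativ (edgeR adjusted p = 1.04e-08 and 2.61e-08). Rnf43 and Znrf3, membrane ubiquitin ligases that remove Frizzled receptors, passed the test against DMSO only. Rnf43 had 127 to 133 CPM in Tamoxifen, 176 to 239 CPM in DMSO and 87.7 to 174 CPM in nativ organoids, a log2 change of -0.80 ± 0.18 (edgeR adjusted p = 0.00250) and -0.22 ± 0.18 (adjusted p = 0.297). Without nativ replicate 2, the library at 87.7 CPM, the second was -0.44 (edgeR adjusted p = 0.00263). Znrf3 changed by -0.62 ± 0.15 against DMSO and had a log2 difference of -0.14 ± 0.15 against nativ (edgeR adjusted p = 0.00353 and 0.429). Nkd1, an inhibitor that binds Dishevelled, went the other way at a low level, with 1.54, 1.40 and 2.11 CPM in Tamoxifen, 0, 0 and 0.0983 CPM in DMSO and 0.229, 0 and 0.0696 CPM in nativ organoids. Its level was 47.5-fold that in DMSO, where the group held 3 reads (95% counting interval 15.9 to 233), and its log2 change against nativ was 3.88 ± 0.63 (edgeR adjusted p = 2.83e-04), or 5.28 without nativ replicate 1.

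Of the 6 receptors, Lgr4, Fzd5 and Fzd7 rose in Tamoxifen organoids, Lrp5 fell, Lrp6 did not pass the test and Lgr6 had at most 0.295 CPM in any organoid library. Lgr4, a second R-spondin receptor, had 224, 220 and 221 CPM in Tamoxifen, 57.5, 54.8 and 63.0 CPM in DMSO and 57.8, 48.6 and 53.7 CPM in nativ organoids. Its groups were far apart, at a log2 change of 1.86 ± 0.08 and 1.94 ± 0.08 (edgeR adjusted p = 7.77e-09 and 6.16e-09). The related Lgr5, described above, did not follow it: per kilobase of exon (RPKM) Lgr4 averaged 43.9 in Tamoxifen, 11.5 in DMSO and 10.5 in nativ organoids, and Lgr5 averaged 8.95, 12.9 and 12.4 RPKM in the same order.

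The Frizzled receptor Fzd5 had 98.1 to 98.5 CPM in Tamoxifen, 33.9 to 45.8 CPM in DMSO and 29.2 to 42.3 CPM in nativ organoids, with log2 changes of 1.23 ± 0.12 and 1.30 ± 0.12 (edgeR adjusted p = 7.32e-06 and 4.94e-06). Fzd7, a Frizzled receptor of intestinal stem cells, had 65.5 to 71.1 CPM in Tamoxifen, 23.2 to 27.9 CPM in DMSO and 18.4 to 26.7 CPM in nativ organoids, with log2 changes of 1.32 ± 0.12 and 1.46 ± 0.12 (edgeR adjusted p = 2.62e-06 and 1.22e-06). The co-receptor Lrp5 had 210, 219 and 223 CPM in Tamoxifen, 440.5, 424 and 561 CPM in DMSO and 378, 272 and 412 CPM in nativ organoids. It lay below every other library, at -1.19 ± 0.13 and -0.81 ± 0.13 on the log2 scale (edgeR adjusted p = 1.77e-05 and 2.96e-04). Its partner Lrp6 had 98.0 to 114 CPM in Tamoxifen, 108 to 126 CPM in DMSO and 72.8 to 113 CPM in nativ organoids, a log2 difference of -0.20 ± 0.12 and -0.01 ± 0.12 (edgeR adjusted p = 0.160 and 0.928). With only the 6 libraries compared, the first passed (-0.23, adjusted p = 0.0277).

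All 4 ligands with enough reads to be tested were called in both comparisons. Wnt3, which Paneth cells of the small intestine make for their stem cell neighbours, had 13.3, 13.0 and 11.9 CPM in Tamoxifen organoids, 0, 0 and 0.0328 CPM in DMSO and 0 in all 3 nativ libraries. Tamoxifen libraries held 1132 reads of Wnt3 against 1 read in DMSO, a ratio of 1089 with a 95% counting interval of 195 to 43055, and were at least 375-fold higher than nativ, computed against 3 reads over the group. Wnt7b, a ligand of many embryonic epithelia, showed the reverse, with 2.14, 2.28 and 2.04 CPM in Tamoxifen, 711, 645 and 581 CPM in DMSO and 554, 312 and 507 CPM in nativ organoids. The log2 change of Wnt7b was -8.29 ± 0.22 against DMSO and -7.83 ± 0.22 against nativ (edgeR adjusted p = 3.26e-10 and 4.30e-10). Wnt4, often active outside the beta-catenin route, had 0.568, 0.358 and 0.331 CPM in Tamoxifen, 39.4, 41.7 and 36.0 CPM in DMSO and 39.1, 36.5 and 39.05 CPM in nativ organoids. Its log2 change was -6.60 ± 0.18 and -6.62 ± 0.18 (edgeR adjusted p = 3.92e-10 and 4.10e-10).

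Wnt11 had 0.735 to 1.68 CPM in Tamoxifen, 0.203 to 0.794 CPM in DMSO and 0.229 to 0.381 CPM in nativ organoids. It was called higher against both groups (log2 change 1.38 ± 0.48 and 1.80 ± 0.50, edgeR adjusted p = 0.0260 and 0.00846). The call against DMSO was lost without DMSO replicate 1 or 3 or Tamoxifen replicate 2 or 3 (adjusted p = 0.0636 to 0.112), and the change was 2.05 without DMSO replicate 2. Wnt9b had 20 reads in Tamoxifen, none in DMSO and 1 in nativ organoids, and was at least 6.41-fold higher than in DMSO and 19.9-fold higher than in nativ (95% counting interval 3.18 to 824). Its locus overlaps Wnt3 on the opposite strand (chr11:103727362-103775272 for Wnt9b and chr11:103774175-103818021 for Wnt3), and because the strand setting of the counting is not given in the sources used here, reads from the shared stretch cannot be told apart. Wnt5a stayed at or under 0.501 CPM in all organoid libraries.

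**Figure D3:**
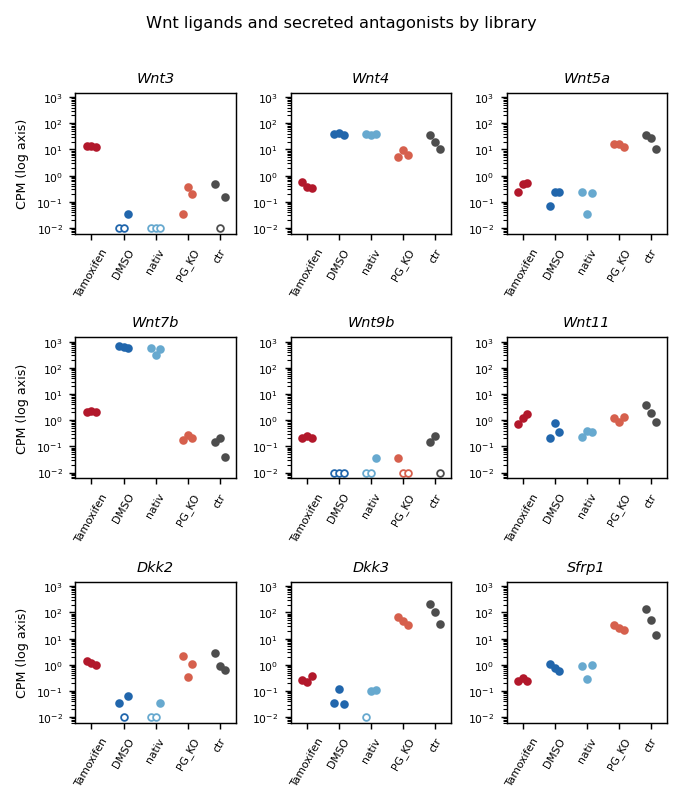
CPM (log axis) of the 6 ligands and 3 secreted antagonists in each library of the 5 groups, with open points at 0.01 for libraries without a read. Wnt3 lies above Wnt7b in the Tamoxifen libraries, at 11.9 to 13.3 CPM against 2.04 to 2.28 CPM. In the 6 other organoid libraries Wnt7b lies at 312 to 711 CPM and Wnt3 at or under 0.0328 CPM.

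Summed over 19 Wnt genes, the level was 21.2 ± 0.948 CPM in Tamoxifen, 745 ± 67.7 CPM in DMSO and 553 ± 143 CPM in nativ organoids (SD, n = 3 each). Per length, Wnt3 made up 59.1% ± 2.89 of the summed RPKM of these genes in Tamoxifen organoids, followed by Wnt10a with 9.50% and Wnt7b with 7.69%. In DMSO and nativ organoids Wnt7b made up 81.2% ± 1.54 and 76.0% ± 2.45, and Wnt3 0.00197% in DMSO. The ligand set thus differed in both its total and its leading gene.

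Paneth cell markers stood beside Wnt3 as follows. Of 8 markers, 7 were called higher and 1 lower in Tamoxifen against each group, and the sum of all 8 was 4392 to 4493 CPM in Tamoxifen, 1685 to 2818 CPM in DMSO and 1970 to 2283 CPM in nativ organoids. In DMSO and nativ nearly all of that sum was Mmp7, a Paneth cell protease, which averaged 190.3 CPM in Tamoxifen, 2403 CPM in DMSO and 2120 CPM in nativ organoids. Lyz1, the Paneth cell lysozyme, averaged 1241 CPM in Tamoxifen and 0.0954 CPM in DMSO organoids, and Defa24 was at 0 in all DMSO libraries. Their part in the Wnt3 difference was not tested.

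**Figure D4:**
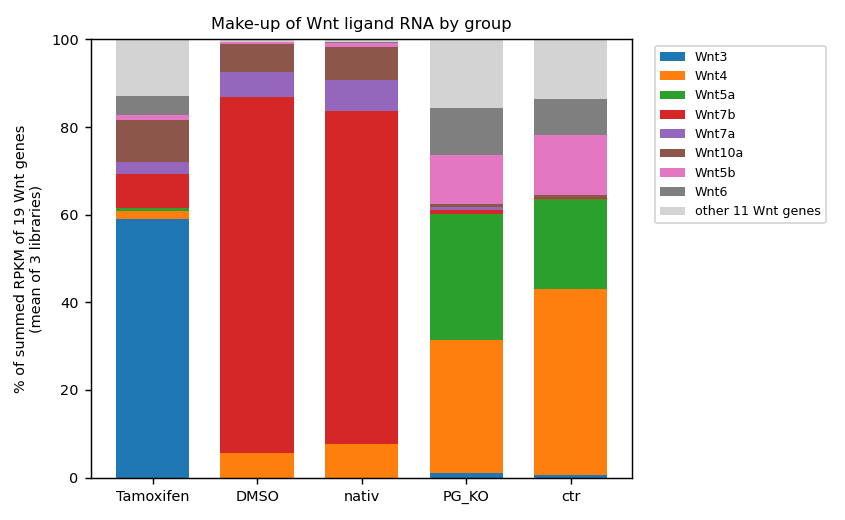
Share of each Wnt gene in the summed RPKM of 19 Wnt genes, as the mean of 3 libraries per group, for Tamoxifen, DMSO, nativ, PG_KO and ctr. Wnt3 fills 59.1% of the Tamoxifen bar and Wnt7b 81.2% of the DMSO bar, and Wnt4 and Wnt5a lead in gut.

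The secreted antagonists were scarce in organoids. Dkk2, which binds LRP co-receptors, had 1.34, 1.14 and 0.966 CPM in Tamoxifen, 0.0338, 0 and 0.0656 CPM in DMSO and 0, 0 and 0.0348 CPM in nativ organoids. It stood 32.7-fold above DMSO (95% counting interval 10.9 to 161) and 101-fold above nativ (17.8 to 4045), where the groups held 3 and 1 reads. Sfrp1, which binds Wnt proteins outside the cell, had 0.234 to 0.325 CPM in Tamoxifen, 0.557 to 1.12 CPM in DMSO and 0.277 to 0.974 CPM in nativ organoids. It was called lower in both comparisons (-1.63 ± 0.46 and -1.50 ± 0.47 on the log2 scale, edgeR adjusted p = 0.00950 and 0.0149), and the call against nativ was lost without nativ replicate 1 or 3 or Tamoxifen replicate 1 (adjusted p = 0.0503 to 0.0575). Dkk3, a divergent relative of the Dickkopf proteins, was at or under 0.358 CPM in every organoid library.

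Among the TCF/LEF factors, Lef1 and Tcf7 rose against both groups. Lef1, which is itself a target of the pathway, had 4.01, 3.51 and 3.33 CPM in Tamoxifen, 0, 0 and 0.0656 CPM in DMSO and 0, 0.277 and 0.0348 CPM in nativ organoids. The DMSO group held 2 reads, and the ratio was 154 with a 95% counting interval of 42.4 to 1281. Against nativ the log2 change was 4.96 ± 0.61 (edgeR adjusted p = 3.80e-05), between 4.32 without nativ replicate 1 and 7.35 without nativ replicate 2. Tcf7 had 27.6 to 29.6 CPM in Tamoxifen, 17.8 to 19.3 CPM in DMSO and 8.63 to 17.7 CPM in nativ organoids, a log2 change of 0.55 ± 0.17 and 0.92 ± 0.17 (edgeR adjusted p = 0.0155 and 8.23e-04). It overlaps Skp1a, which reached 320 CPM, on the opposite strand. Tcf7l2, the main TCF factor of intestinal epithelium, passed in neither comparison (-0.26 ± 0.14 and -0.25 ± 0.14, edgeR adjusted p = 0.129 and 0.148), but did against nativ without nativ replicate 2 (-0.38, adjusted p = 0.0216). Tcf7l1, which acts mostly as a repressor, stayed at or under 2.22 CPM in every organoid library. It was called lower against DMSO (-0.94 ± 0.36, edgeR adjusted p = 0.0379) with overlapping groups, and the call was lost without DMSO replicate 2 or 3 or Tamoxifen replicate 1 or 3 (adjusted p = 0.104 to 0.128) or with library totals (adjusted p = 0.0596). Against nativ it differed by -0.71 ± 0.36 (edgeR adjusted p = 0.104).

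In the destruction complex, the scaffold Axin1 fell and the tumour suppressor Apc rose, both by less than 2-fold, and the kinase Gsk3b did not pass the test. Axin1 had 67.1 to 69.3 CPM in Tamoxifen, 90.7 to 103 CPM in DMSO and 69.3 to 89.2 CPM in nativ organoids, a log2 change of -0.55 ± 0.08 and -0.36 ± 0.08 (edgeR adjusted p = 1.31e-04 and 0.00234). With library totals the call against nativ was lost (-0.25, adjusted p = 0.0738). Apc had 84.1 to 107 CPM in Tamoxifen, 57.5 to 68.3 CPM in DMSO and 35.4 to 63.6 CPM in nativ organoids, a log2 change of 0.51 ± 0.16 and 0.73 ± 0.16 (edgeR adjusted p = 0.0151 and 0.00201). The Apc call against DMSO was lost without DMSO replicate 2 or Tamoxifen replicate 2 (adjusted p = 0.0565 and 0.0706). Gsk3b differed by 0.09 ± 0.10 and 0.16 ± 0.10 (edgeR adjusted p = 0.447 and 0.201). Axin1 and Axin2, which can replace each other in the complex, thus had opposite signs.

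Beta-catenin itself, Ctnnb1, had 1088, 1051 and 1071 CPM in Tamoxifen, 2226, 1777 and 2160.0 CPM in DMSO and 1827, 1175 and 1911 CPM in nativ organoids. It was lower in every Tamoxifen library, at -1.01 ± 0.15 and -0.72 ± 0.15 on the log2 scale (edgeR adjusted p = 1.79e-04 and 0.00173). Of 73 further pathway and crypt genes, 51 were tested in organoids. Of these, 14 were higher and 26 lower against DMSO, and 16 were higher and 22 lower against nativ. Over all tested genes, 33.9% were higher and 32.4% lower against DMSO, and 33.5% in each direction against nativ. The 11 other crypt and stem cell markers among them went both ways, with 6 higher and 3 lower against DMSO and 7 higher and 3 lower against nativ. The largest rises among the 51 genes were those of Clca4a and Ror2. Clca4a, a crypt base marker, averaged 227 CPM in Tamoxifen, 0.0817 CPM in DMSO and 0.109 CPM in nativ organoids. Ror2, a receptor for Wnt5a, averaged 24.9, 0.192 and 0.0921 CPM in the same order. The largest falls were those of 2 ligands, Wnt7a with 0.572, 31.7 and 29.9 CPM and Wnt10a with 1.18, 22.9 and 20.3 CPM in that order. Their log2 changes against DMSO were 11.30, 6.88, -5.84 and -4.34, all with an edgeR adjusted p at or under 5.96e-08. Porcn and Wls, which attach the lipid to Wnt proteins and carry them to the cell surface, were chosen after their values were seen. Porcn averaged 3.16 CPM in Tamoxifen, 38.0 CPM in DMSO and 38.2 CPM in nativ organoids, and Wls 102, 198 and 188 CPM, with log2 changes against DMSO of -3.66 ± 0.22 and -1.02 ± 0.08 (edgeR adjusted p = 1.06e-07 and 1.07e-06).

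DMSO and nativ organoids, which share the code and genotype, were much closer. No gene of the 39 was called in edgeR, and 0% of all 16449 tested genes were called. At an unadjusted p under 0.05 the counts were 9 of 35 members and 14.6% of all tested genes. limma-voom called none of the members, and DESeq2 called 1, Olfm4 (DESeq2 adjusted p = 2.73e-06), where it called 0.923% of all genes. The edgeR log2 difference of Olfm4 was -2.29 ± 0.37 (adjusted p = 0.291), and its DMSO and nativ libraries, listed above, did not overlap. Differences were positive for 29 of 35 members, with a median of 0.15 beside -0.01 over all tested genes. The share of all tested genes with a positive difference was not computed. Nativ replicate 2 was the lowest nativ library, or tied for lowest, for 28 of the 35 members, a share not computed over all tested genes. It had 8.63 CPM of Tcf7 and 87.7 CPM of Rnf43, against 16.1 to 17.7 and 163 to 174 CPM in the other nativ libraries. The part of this library in the positive differences was not tested.

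Organoids and gut are separate tables, and no test was made between them. Per length, Ccnd1 had the highest level of the 39 genes in all 5 groups, and in gut it stood at 78.7 ± 10.4 RPKM in PG_KO and 62.4 ± 16.6 RPKM in ctr (SD, n = 3 each). Lgr5 averaged 0.476 RPKM in PG_KO and 0.183 RPKM in ctr, and Notum, Wnt3, Wnt7b, Wnt9b and Lgr6 had too few reads to be tested. Wnt4 and Wnt5a, a ligand of the gut mesenchyme, made up 30.5% and 28.8% of the summed Wnt RPKM in PG_KO, against 42.6% and 20.4% in ctr.

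No member was called in PG_KO against ctr by edgeR: 0 of 34, beside 0% of all 18043 tested genes. At an unadjusted p under 0.05 the counts were 5 of 34 members (Lef1, Nkd1 and Wnt4 lower in PG_KO, Lrp5 and Tcf7l1 higher) and 15% of all tested genes. limma-voom called none, and DESeq2 called 1 member, Wnt4, where it called 2.38% of all genes. Libraries of the groups did not overlap for 3 members, Lef1, Lrp6 and Wnt4, all lower in PG_KO, where 8.67% of all tested genes were apart in that direction and 18.6% in either. The median log2 difference of the members was -0.04, beside -0.03 over all tested genes. Jup itself, at -2.29 ± 0.23 on the log2 scale, had an edgeR adjusted p of 0.163, so a difference of that size did not pass the test here.

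Wnt4 had 5.04, 9.39 and 6.19 CPM in PG_KO, against 34.2, 20.1 and 10.03 CPM in ctr gut. The groups were apart, but ctr replicate 3 stood close to PG_KO replicate 2. The log2 difference was -1.62 ± 0.45 (edgeR adjusted p = 0.330, DESeq2 adjusted p = 0.0323). Lef1 had 0.317, 0.990 and 1.06 CPM in PG_KO, against 2.11, 2.93 and 1.38 CPM in ctr, a log2 difference of -1.44 ± 0.53 (edgeR adjusted p = 0.330). Lrp6 had 72.7 to 78.1 CPM in PG_KO, against 80.3 to 100.2 CPM in ctr, a difference of -0.19 ± 0.12 (edgeR adjusted p = 0.440). Tcf7l1 and Lrp5 went the other way, with overlapping groups. Tcf7l1 averaged 84.9 CPM in PG_KO and 44.8 CPM in ctr, a log2 difference of 0.91 ± 0.36 (edgeR adjusted p = 0.330). Lrp5 averaged 140 and 88.1 CPM, a log2 difference of 0.67 ± 0.28 (edgeR adjusted p = 0.333).

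Stem cell markers and targets overlapped between the gut groups throughout. Lgr5 had 0.388, 3.88 and 2.46 CPM in PG_KO, against 0.644, 0.302 and 1.64 CPM in ctr, a log2 difference of 1.33 ± 0.90 (edgeR adjusted p = 0.453). Ascl2 had 5.003, 10.9 and 13.6 CPM in PG_KO, against 2.43, 4.44 and 6.27 CPM in ctr, a log2 difference of 1.15 ± 0.49 (edgeR adjusted p = 0.333). Smoc2 had 17.2 to 27.0 CPM in PG_KO, against 19.5 to 59.7 CPM in ctr. Axin2 had 22.8 to 36.2 CPM in PG_KO and 15.1 to 31.7 CPM in ctr, a log2 difference of 0.41 ± 0.31 (edgeR adjusted p = 0.491). Myc, with 0.00 ± 0.34, and Sox9, with -0.04 ± 0.32, had the smallest differences of the targets. Ctnnb1 averaged 1057 CPM in PG_KO and 894 CPM in ctr, a log2 difference of 0.25 ± 0.19 (edgeR adjusted p = 0.495).

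Several secreted antagonists and ligands spread widely among the ctr libraries. Sfrp1 had 31.9, 25.3 and 20.8 CPM in PG_KO, against 132, 50.1 and 13.4 CPM in ctr replicates 1, 2 and 3. Dkk3 had 68.9, 45.8 and 32.8 CPM in PG_KO, against 202, 105 and 35.7 CPM in ctr. For 9 of the 34 tested members, Dkk2, Dkk3, Fzd7, Nkd1, Sfrp1, Smoc2, Wnt11, Wnt4 and Wnt5a, ctr replicate 1 stood over replicate 2 and replicate 2 over replicate 3. The share of all tested genes in this order was not computed. Of the 34 members, 11 were highest in ctr replicate 1, 10 in PG_KO replicate 2, 5 in ctr replicate 3 and the rest in the other gut libraries. For these counts, too, the share of all tested genes was not computed. Ctr replicates 1, 2 and 3 held 3952, 2260.4 and 970 CPM of 11 fibroblast markers. Of 6 smooth muscle markers they held 4263, 3385 and 657 CPM. PG_KO libraries held 664 to 1482 CPM of the fibroblast and 598 to 1151 CPM of the smooth muscle markers. None of the 11 and 6 markers was at 0 in either gut group. Other marker sums differed too. The 7 dividing cell markers summed to 1082 to 1356 CPM in PG_KO, against 682 to 1059 CPM in ctr, and the 8 T and NK cell markers to 7.05 to 14.9 CPM, against 19.5 to 46.8 CPM. The 6 B and plasma cell markers summed to 78.1 to 171 CPM in PG_KO, against 203 to 582 CPM in ctr, and none of these 3 sums overlapped between the groups. The sums of epithelial, Paneth cell, endothelial, and macrophage and neutrophil markers did overlap, at 12686 to 16538, 21.2 to 43.0, 29.3 to 85.2 and 199 to 1015 CPM in PG_KO, against 8139 to 13356, 39.1 to 74.1, 44.8 to 213 and 702 to 2125 CPM in ctr. None of the marker genes was called in edgeR, DESeq2 called 2 of T and NK cells and 1 of Paneth cells, and their part in the gut differences was not tested. Without ctr replicate 3, 4 members were called, with Nkd1, Wnt4 and Wnt5a lower and Lrp5 higher in PG_KO (log2 change -1.86, -1.92, -0.98 and 1.02, edgeR adjusted p = 0.0329 to 0.0466), where 7.91% of all tested genes were called. Of the 73 further genes, 58 were tested in gut and none was called in edgeR, and DESeq2 called 2, Clca4a and Sfrp2.

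**Figure D5:**
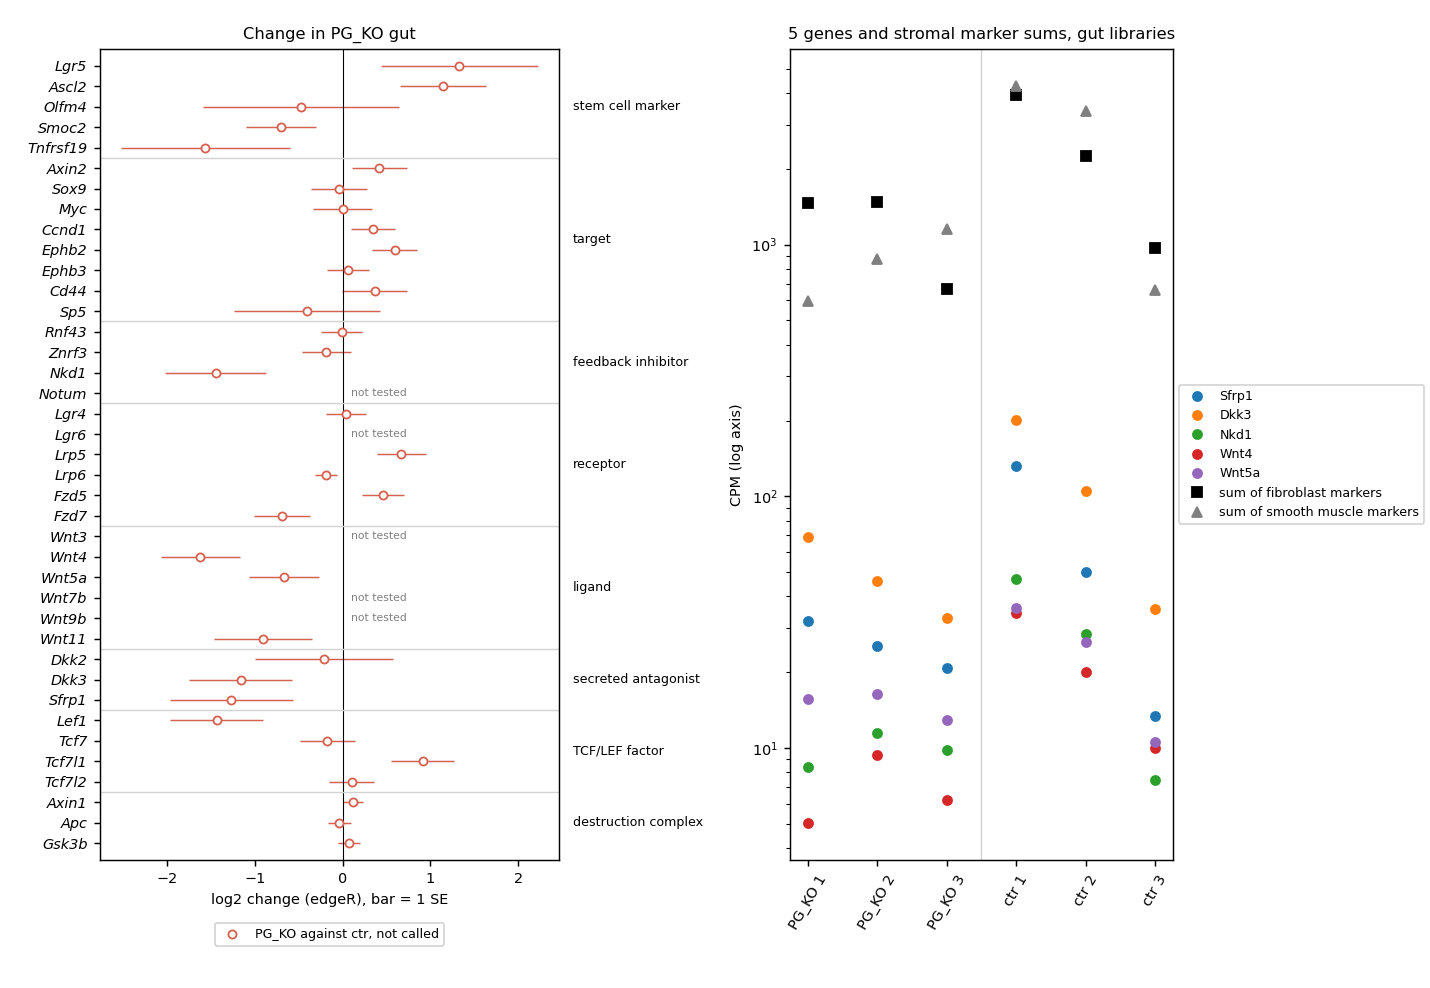
Left, log2 difference of each gene in PG_KO against ctr gut with a bar of 1 SE, all open because none passed an adjusted p of 0.05 in edgeR. Right, CPM of 5 genes and of the summed fibroblast and smooth muscle markers in each gut library on a log axis, where ctr replicate 1 is highest and ctr replicate 3 lies within or near the range of the PG_KO libraries.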

How the data were processed

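RNA was extracted with TRIZOL and enriched for poly(A) before TruSeq library preparation, per the labels' protocols, which give RNA integrity numbers of at least 7.7. The submitters' processing notes list STAR 2.7.2b, featureCounts 1.6.4, cutadapt 2.5, bcl2fastq 2.20.0.422 and DESeq2, with the build GRCm38.p6; strand setting and filters are not given in the sources used here. The deposited values are expected counts per gene, of which 10.4% to 13.7% per library are not whole, so some reads were divided among genes or places. They were rounded for the fits. The deposited tables also give the combined exon length of each gene, used for RPKM.

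The 9 organoid libraries were fitted together and the 6 gut libraries apart, by the description labels, using edgeR 4.0.16 under R 4.3.3 and its quasi-likelihood F test (TMM factors, filterByExpr by group, robust dispersion, Benjamini-Hochberg over all tested genes, calls at an adjusted p under 0.05). CPM use library totals, and SE = |log2 change| / sqrt(F). Where a group holds a handful of reads, this SE can be smaller than counting error. A fold against 0 reads uses 3 reads over the group, and ratios over 1 to 3 reads carry a 95% interval. Alternatives were DESeq2 1.42.0, limma-voom (limma 3.58.1), RLE factors, library totals, a replicate block, no filter, a filter of 1 CPM in at least 3 libraries, the 6 compared libraries alone and each library left out. The tests were also run on simulated data for Tamoxifen against DMSO and PG_KO against ctr. The outcome is not reported here, and no claim about their power rests on it. Figures used matplotlib 3.10.9 in Python 3.11.15.

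All 39 genes are named by rule. Of the 73 further genes, those named are Ctnnb1 and the 2 largest called changes in each direction whose mean reached 1 CPM in 1 group or more; others are said to be chosen later. Members and lists were chosen with earlier results of these data known.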

Additional observations from a re-analysis of the deposited data

How the results depend on the processing

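Counts of called members were little moved by the settings tried. Against DMSO they ran from 28 to 33 and against nativ from 23 to 30, beside 31 and 26. With single libraries left out the range was 28 to 31 against DMSO, 24 to 30 against nativ, 0 to 0 for DMSO against nativ, and 0 to 4 for PG_KO against ctr, where the 4 calls came without ctr replicate 3. DESeq2 called 1 member for DMSO against nativ (Olfm4) and 1 for PG_KO against ctr (Wnt4), where edgeR called none. No called member changed sign under any setting. Calls that changed concerned 6 members against DMSO, 4 lost (Ephb3, Tcf7l1, Wnt11 and Apc) and 2 gained (Lgr5 and Lrp6), and 8 against nativ, 3 lost (Axin1, Sfrp1 and Olfm4) and 5 gained (Lgr5, Myc, Rnf43, Tcf7l1 and Tcf7l2). The cause of these changes was not tested. Scaled by library totals, the all-gene median log2 change against nativ was 0.13 (0.01 with TMM), and the call of Axin1 was then lost (-0.25, adjusted p = 0.0738).

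Deviations of same-numbered libraries from their group means correlated weakly at most (-0.123 to 0.186 in organoids and -0.183 to 0.289 in gut). With 3 libraries per group, this cannot settle whether the numbers pair samples, and the main fits did not pair them. With the replicate number as a block, 32, 27, 0 and 0 members (Lgr5 added in the first and the second) were called in Tamoxifen against DMSO, Tamoxifen against nativ, DMSO against nativ and PG_KO against ctr.

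Values under about 0.1 CPM rest on 3 reads or fewer. For members whose span overlaps another gene with reads, reads in a shared stretch cannot be told apart. The highest levels of such genes on the opposite strand in any library were 320 CPM (Skp1a, beside Tcf7), 24.3 CPM (Gm15401, beside Tcf7l1), 21.6 CPM (LTO1, beside Ccnd1) and 13.3 CPM (Wnt3, beside Wnt9b). On the same strand 1110028F11Rik, beside Rnf43, reached 8.86 CPM. Each of the other overlapping genes, such as those beside Tcf7l2 and Ephb2, stayed at or under 3.62 CPM.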
